A study of Mus musculus with 63 samples.

Results

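The regulators of definitive endoderm described here are 8 genes, Foxa2 (gene ID 15376), Foxa1 (15375), Sox17 (20671), Gata4 (14463), Gata6 (14465), Cer1 (12622), Hhex (15242) and Cxcr4 (12767), chosen as a list of named genes from the 24990 rows of each deposited gene table. They were followed through 63 RNA-seq libraries of the mouse embryonic stem cell line R1, 3 libraries in each of 21 groups. In the genotype series, 2 lines with a deleted promoter of the long non-coding RNA Meteor (pKO1 and pKO2, together pKO), 1 line with that promoter inverted (pInv) and 2 wild-type lines (WT1 and WT2, together WT) were each sampled in 2i medium, in serum medium and as neural progenitor cells (NPCs). In the perturbation series, 2 Meteor knockdown groups (KD1 and KD2, together KD), which the sample labels give as CRISPR/dCas9 and the design text as CRISPR/Cas9, and 1 empty-vector group (Ctrl) were sampled in serum and as NPCs. Stem cells in both media grew on mouse embryonic fibroblast feeders, with LIF at 10 ng/ml in each. In 2i the kinase inhibitors PD0325901 (1 µM) and CHIR99021 (3 µM) were present, and the other medium contained 15% serum. NPCs were made from serum cells passaged without feeders and kept 4 days in neural medium. Replicate 3 of the Ctrl NPCs carries no growth protocol. Whether the 3 libraries in a group represent distinct cultures is not stated in the labels, so p-values measure only the spread between libraries, which may be technical. pInv is 1 line, and Ctrl is 1 group.

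Definitive endoderm is the germ layer that gives rise to the gut tube, liver, pancreas and lung. It forms from the anterior primitive streak when Nodal signalling through SMAD2 and SMAD3 acts with the T-box factor Eomes, which switches on a layer of transcription factors. Foxa2 and Foxa1 are forkhead factors that open closed chromatin at endoderm enhancers. Sox17 is a SOX factor required for gut endoderm, and Gata4 and Gata6 are zinc-finger factors of endoderm and heart. Cer1 is a secreted inhibitor of Nodal and BMP made by anterior endoderm, and Hhex is a homeobox repressor of early foregut and liver. Cxcr4 is the receptor for the chemokine Cxcl12 and a surface marker used to sort endoderm. Sox17, Gata4, Gata6, Foxa2, Cer1 and Hhex are also active in extraembryonic endoderm, Foxa2 marks the floor plate and the node, and Cxcr4 is also made by neural cells.

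The promoters show what sequence lies just before the starts of the 2 members with the largest changes between states in WT cells, Foxa2 and Cer1, of the other forkhead factor, and of Hhex, which passed no test between genotypes. Each window is the 250 bases before a RefSeq start on assembly GRCm38.p6, 5′ to 3′ on the gene's strand, and capitals mark motif matches. Foxa2 (chr2:148045465-148045714, minus strand, the innermost of 3 listed starts) has 1 GATA match, Foxa1 (chr12:57546112-57546361, minus strand) has 1 T-box match and then 1 FOXA match, and Cer1 (chr4:82885152-82885401, minus strand) and Hhex (chr19:37434591-37434840, plus strand) have none.
Foxa2: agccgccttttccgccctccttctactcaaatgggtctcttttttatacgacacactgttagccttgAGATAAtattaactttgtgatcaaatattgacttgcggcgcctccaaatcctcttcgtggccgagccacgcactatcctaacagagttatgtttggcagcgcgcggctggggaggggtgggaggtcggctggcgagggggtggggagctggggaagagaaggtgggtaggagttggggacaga
Foxa1: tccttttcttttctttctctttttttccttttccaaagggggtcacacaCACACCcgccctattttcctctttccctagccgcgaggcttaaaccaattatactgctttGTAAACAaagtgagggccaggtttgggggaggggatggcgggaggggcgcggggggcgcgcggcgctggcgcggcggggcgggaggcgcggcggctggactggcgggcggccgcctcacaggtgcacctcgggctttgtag
Cer1: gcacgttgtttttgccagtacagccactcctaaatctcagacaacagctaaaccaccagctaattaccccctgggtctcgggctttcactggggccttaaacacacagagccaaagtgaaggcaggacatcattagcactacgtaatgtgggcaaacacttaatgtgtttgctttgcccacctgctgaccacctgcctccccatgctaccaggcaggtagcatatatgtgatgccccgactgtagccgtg
Hhex: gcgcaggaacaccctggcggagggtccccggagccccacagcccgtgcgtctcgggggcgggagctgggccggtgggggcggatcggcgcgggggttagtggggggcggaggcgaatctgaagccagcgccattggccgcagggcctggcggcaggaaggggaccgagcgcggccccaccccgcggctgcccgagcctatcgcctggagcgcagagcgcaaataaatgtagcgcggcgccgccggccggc
Motifs were searched on both strands as fixed letters. The core of T-box factors, GGTGTG, lies in 16.3% of 32851 windows of the same length, and the motif of zinc-finger factors of the Gata family, AGATAA, in 9.99%. The forkhead motif TGTTTAC lies in 3.17%, the core of Sox factors AACAAT in 9.42%, and the Foxh1 motif AATNNACA in 10.9%. The window of Cxcr4 and the other 2 windows of Foxa2 held none of these letters. A match is a description of letters, not a bound site, and nothing is drawn from it about a factor.

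Library depth ran from 7566608 to 18553292 counts, and no library was a copy of another. Platr11, a non-coding RNA beside Eomes in the reference annotation that serves here as the readout of the Meteor locus, though no source used here states that the names denote the same transcript, kept 0.41% of its WT level in pKO in 2i, 0.881% in serum and 1.47% in NPCs. In pInv it kept 0.989% in 2i and 0.984% in serum, and no count in NPCs (at least 76.3-fold lower than WT, with a floor of 3 counts over the group). In KD it kept 9.84% of the Ctrl level in serum (adjusted p = 0.18 in edgeR) and 14.1% in NPCs (adjusted p = 0.138). Neither of these falls passed the test in these fits, which did not pair libraries by replicate number. The summed level of 20 feeder fibroblast genes was 2270 to 13500 CPM (counts scaled to TMM library size) in pKO serum libraries, 2280 to 9480 in pInv and 2740 to 5580 in WT, and 537 to 2410 in KD against 510 to 2120 in Ctrl. In NPCs it was 244 to 845 CPM in pKO, 233 to 338 in pInv and 209 to 860 in WT. In 2i it was 682 to 2170 CPM in pKO, 572 to 1690 in pInv and 888 to 1720 in WT. The summed level of 8 macrophage genes in WT was 37.4 to 126 CPM in 2i, 189 to 432 in serum and 3.99 to 8.08 in NPCs. The part of feeders and macrophages in the results was not tested. Because these are bulk libraries, fewer cells of a type and less RNA per cell cannot be told apart.

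In every state the 8 members were lowly expressed, and their order changed with the state. Per length, in TPM (RSEM's length-scaled abundance, mean ± SD over 6 WT libraries), Hhex led in 2i at 16.5 ± 3.0, far above Gata4 (3.99 ± 2.35), Cxcr4 (2.28 ± 0.34), Sox17 (2.01 ± 1.29), Foxa1 (1.31 ± 0.96) and Gata6 (1.05 ± 0.38). From Gata4 to Gata6 each pair of neighbours in that order differed by less than the larger SD of the pair. Foxa2 averaged 0.21 ± 0.13 TPM in 2i, and Cer1 had no count in any of the 15 libraries in 2i, where 3 counts over a group would be 0.0467 CPM in pKO, 0.0874 in pInv and 0.0427 in WT. In WT serum cells Hhex (7.53 ± 0.69 TPM), Cxcr4 (7.34 ± 2.83), Cer1 (6.36 ± 5.22) and Foxa2 (6.28 ± 3.28) overlapped at the top, then came Gata6 (2.94 ± 2.19), Gata4 (2.31 ± 1.23), Sox17 (1.2 ± 1.06) and Foxa1 (0.688 ± 0.214), and neighbours among these 4 differed by less than the larger SD of the pair. In WT NPCs Cxcr4 (9.87 ± 3.71 TPM) and Hhex (4.34 ± 0.62) stood well above Gata4 (0.518 ± 0.203), Foxa1 (0.40 ± 0.27), Foxa2 (0.385 ± 0.448), Gata6 (0.213 ± 0.208), Cer1 (0.212 ± 0.304) and Sox17 (0.055 ± 0.0489), and neighbours among those 6 differed by less than the larger SD of the pair. The plot of levels by genotype shows every library.

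**Figure D1:**
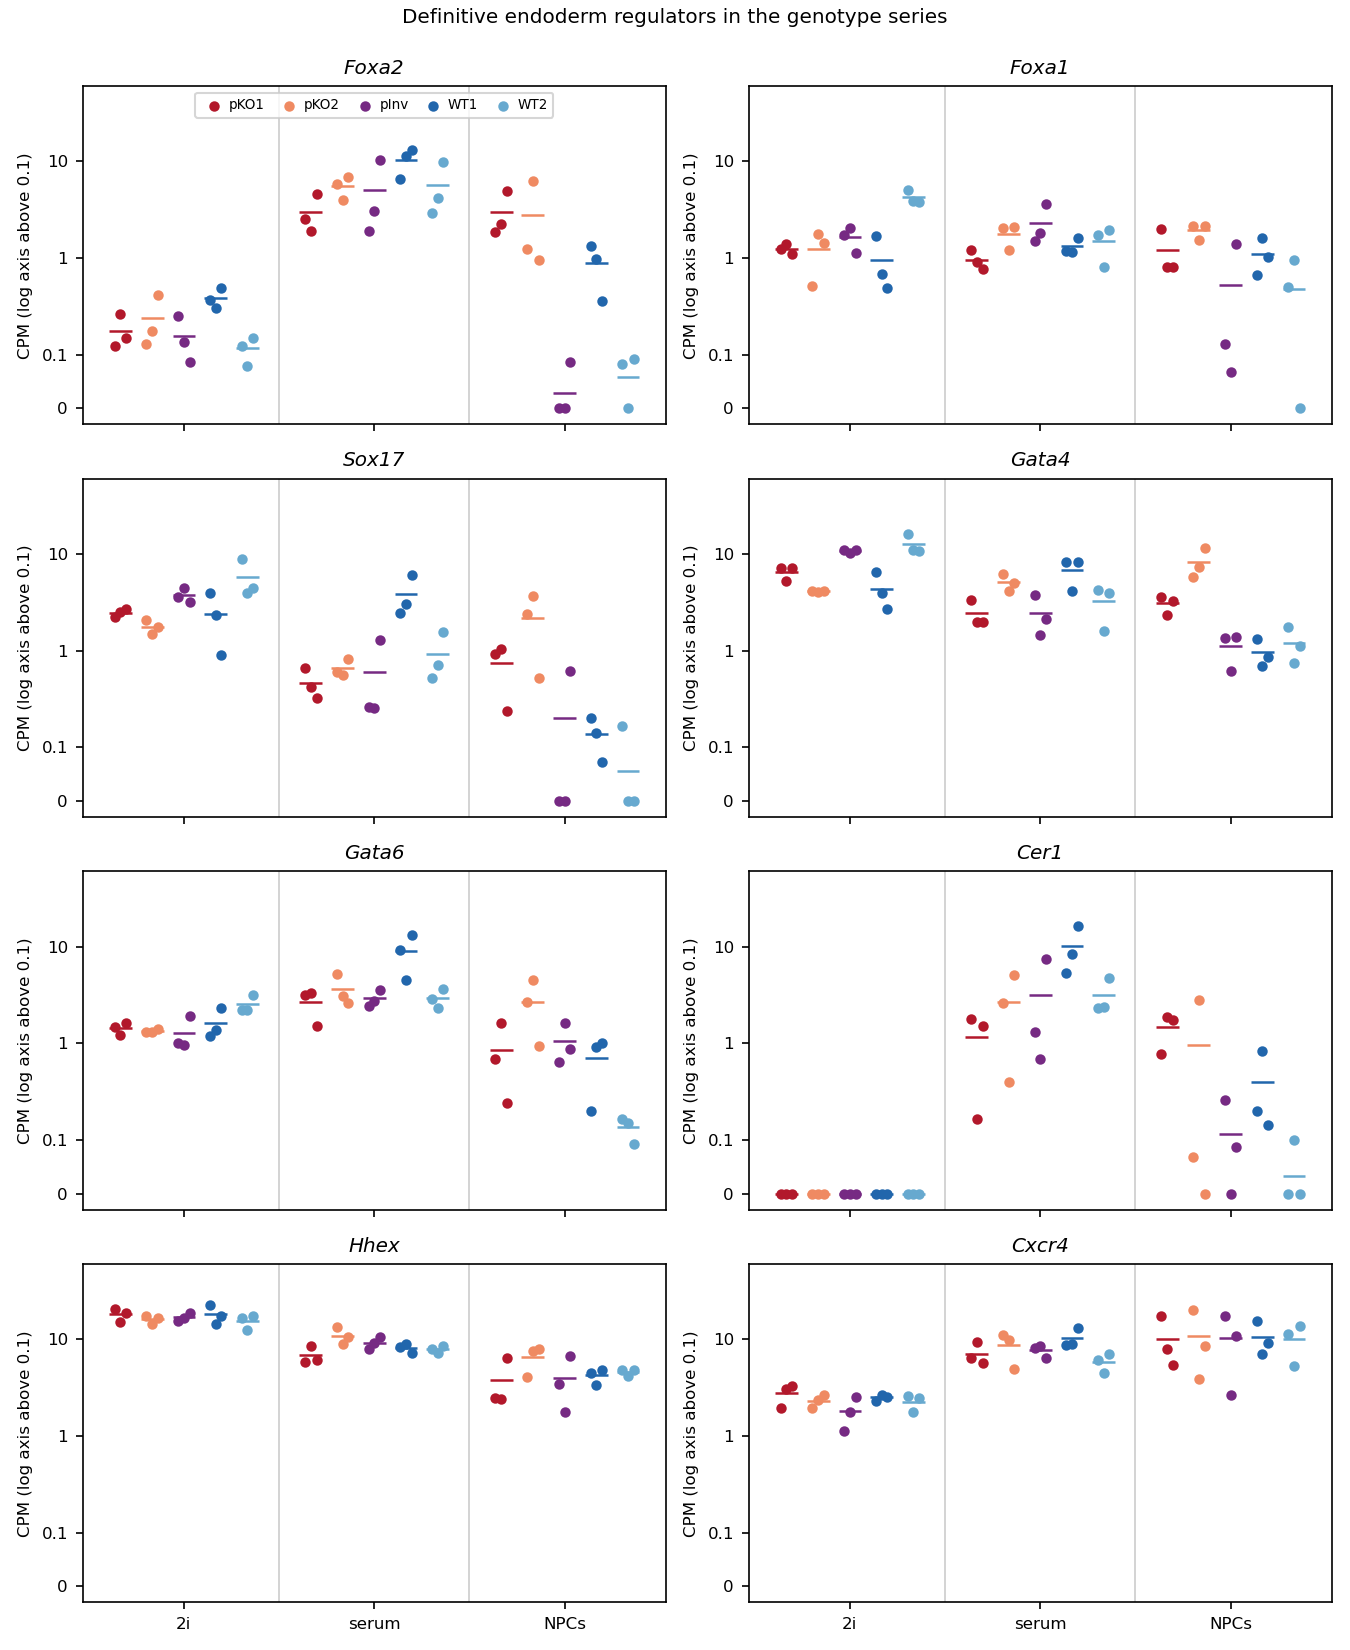
Levels of the 8 members in each genotype library. Each panel is 1 gene, each point 1 library, and bars are the means of the 3 libraries of a line; columns run pKO1, pKO2, pInv, WT1, WT2 within 2i, serum and NPCs, and the y axis is TMM-scaled CPM on a scale that is linear near 0 and logarithmic above. In NPCs all 6 pKO libraries of Gata4 (2.34 to 11.5 CPM) and of Sox17 (0.239 to 3.65 CPM) lie above all 6 WT libraries.

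In WT cells Foxa2, Gata6, Cer1 and Cxcr4 were higher in serum than in 2i, and Hhex and Sox17 were lower. All 8 members were tested with edgeR's quasi-likelihood test (Benjamini-Hochberg adjusted p under 0.05 over all genes). 4 of the 8 rose, where 29.5% of all genes tested rose, and 2 of the 8 fell, where 29.5% of all genes fell. Foxa2 was 2.94 to 13.1 CPM in WT serum libraries (median 8.15) and 0.0796 to 0.492 CPM in 2i (median 0.226), without overlap, a log2 fold change of 5.06 ± 0.45 (SE, adjusted p = 2.35e-08). Cer1 was 2.34 to 16.4 CPM in serum, and its group level, from 487 counts, was at least 158-fold higher than in 2i, with a floor of 3 counts over the WT group. Cxcr4 rose by 1.67 ± 0.26 (adjusted p = 2.35e-05) and Gata6 by 1.31 ± 0.32 (adjusted p = 0.00191). Hhex fell by 1.09 ± 0.15 (adjusted p = 8.06e-06). The fall of Sox17 (−0.99 ± 0.41, adjusted p = 0.0464) lost its call in 10 of the 18 fits without 1 library (−1.28 to −0.72 over all 18) and was 0.66 with WT1 alone, and the rise of Gata6 was 0.18 with WT2 alone.

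The same 4 members rose and the same 2 fell in pKO cells, against 30.1% and 28% of all genes. In pInv cells Foxa2, Cer1 and Cxcr4 rose, where 22.6% of genes did, and Sox17, Gata4 and Hhex fell, where 21.7% did. Foxa2 differed between serum and 2i by 4.16 ± 0.55 in pKO, 4.99 ± 0.81 in pInv and 5.06 ± 0.45 in WT on the log2 scale. Cer1 was at least 40.6-fold higher in pKO serum cells and at least 34.8-fold higher in pInv serum cells than the floor in 2i. No member passed the test of a difference in this step between an edited genotype and WT: 0 of 8 passed the interaction test in edgeR, where 1.13% of genes did for pKO and 0.0191% for pInv. For Cer1, with no count in 2i, this test could not give an estimate, so the count speaks for the other 7 members. At an unadjusted p under 0.05 the members numbered 0 for pKO and 1 for pInv, and DESeq2 called 0 in each. That 1 was Gata4, whose pInv effect was lower in serum than in 2i by −1.48 ± 0.46 (unadjusted p = 0.00265, adjusted p = 1).

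In WT cells that became NPCs, 6 of the 8 members fell against serum, all but Foxa1 and Cxcr4, where 34.3% of all genes fell. The members' median log2 fold change was −3.08, against −0.02 for all genes. Cer1, the secreted inhibitor, was 0 to 0.836 CPM in WT NPCs (median 0.122) and 2.34 to 16.4 CPM in serum (median 5.04), a log2 fold change of −5.26 ± 0.56 (adjusted p = 1.18e-06). Foxa2 differed by −5.08 ± 0.45 (adjusted p = 2.38e-08), Sox17 by −4.38 ± 0.61 (adjusted p = 5.14e-06) and Gata6 by −4.01 ± 0.40 (adjusted p = 8.49e-08). In each of these 4 genes every WT NPC library was below every WT serum library. The share of all genes separated in this way was not computed. Gata4 fell by 2.15 ± 0.32 on the log2 scale (adjusted p = 1.34e-05), and Hhex by 0.88 ± 0.16 (adjusted p = 8.73e-05). The chemokine receptor Cxcr4 had 0.40 ± 0.24 (adjusted p = 0.148), with NPC libraries at 5.34 to 15.4 CPM and serum libraries at 4.43 to 13 CPM, which overlapped.

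Foxa2, Sox17, Gata4, Gata6, Cer1 and Hhex also fell in the perturbation series: 6 of 8 members in KD, where 34% of all genes fell, and 6 of 8 in Ctrl, where 27.2% fell. The summed level of 6 pluripotency genes was 1170 to 1360 CPM in KD NPCs and 1140 to 1400 in Ctrl NPCs, against 411 to 728 in WT NPCs. In serum it was 2060 to 3240 CPM in KD, 2330 to 3140 in Ctrl and 1340 to 1770 in WT. In pInv cells 6 of 8 fell, where 25.4% of genes did, but with Foxa1 (−2.20 ± 0.68, adjusted p = 0.00773) in place of Sox17 (−1.70 ± 0.92, adjusted p = 0.126). Foxa2 had 169 counts in the 3 pInv serum libraries and 1 count in the 3 pInv NPC libraries, a ratio of serum to NPCs of 206 (95% counting interval 36.5 to 8200). Intervals and floors of this kind cover counting error only. The count of 6 rests partly on single libraries: it was 3 in Ctrl without serum replicate 1 and 3 in pInv without serum replicate 3, where Foxa1, Gata6 and Cer1 no longer passed. With the replicate number as a block, Cxcr4 passed with −0.46 in KD (adjusted p = 0.0115) and −0.49 in Ctrl (adjusted p = 0.047), against −0.04 and −0.03 without the block. The block pairs the libraries of the perturbation series within a state, not serum libraries with NPC libraries. Cxcr4 was lower in NPCs than in serum in the libraries numbered 1 of each group and higher in those numbered 2 and 3. Whether the blocked values rest on the libraries numbered 1 was not tested.

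In pKO cells only Gata6 (−1.04 ± 0.36, adjusted p = 0.0124) and Hhex (−0.81 ± 0.23, adjusted p = 0.00217) fell between serum and NPCs, 2 of 8 members where 33.2% of all genes fell. Foxa2 was 0.944 to 6.24 CPM in pKO NPCs (median 2.05) and 1.91 to 6.86 CPM in pKO serum cells (median 4.25), and the ranges overlapped (−0.49 ± 0.41, adjusted p = 0.305). Sox17 was 0.239 to 3.65 CPM in NPCs (median 0.986) and 0.326 to 0.813 CPM in serum (median 0.584), a difference of 1.17 ± 0.54 (adjusted p = 0.0556), which DESeq2 called (1.19, adjusted p = 0.0321) and edgeR called in 8 of the 45 fits without 1 library. Gata4 had 0.50 ± 0.27 (adjusted p = 0.101) and Cer1 −0.56 ± 0.74 (adjusted p = 0.524). Without NPC replicate 2 of pKO2, the library highest in Foxa2, Sox17, Gata6 and Cer1, 4 members fell, with Foxa2 at −1.15 and Cer1 at −2.72.

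**Figure D2:**
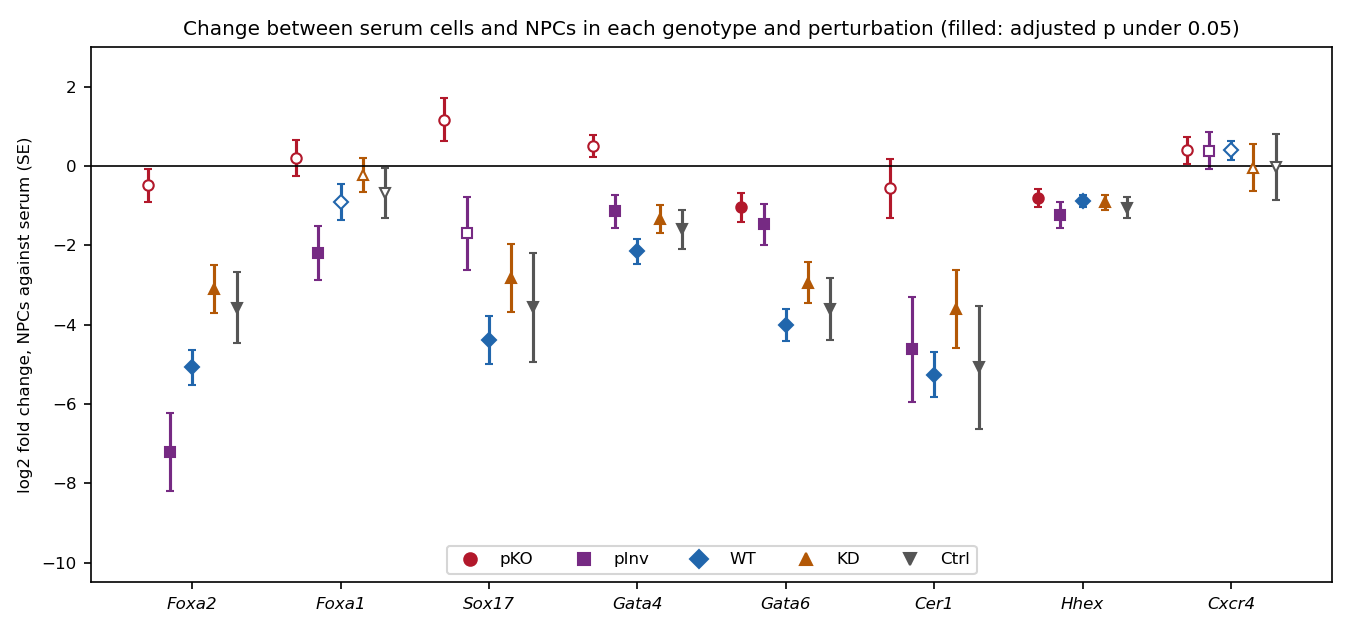
Difference of each member between NPCs and serum. Points are log2 fold changes (NPCs over serum) with SE bars from edgeR for pKO, pInv, WT, KD and Ctrl cells, filled where adjusted p was under 0.05. In WT, KD and Ctrl cells 6 members are filled and below 0, in pKO only Gata6 and Hhex, and the pInv value of Foxa2 rests on 1 NPC count.

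In NPCs 4 of the 8 members were higher in pKO than in WT: the forkhead factor Foxa2, the SOX factor Sox17 and both GATA factors, where 3.45% of all genes tested rose. None fell. The members' median log2 fold change was 2.25 and that of all genes 0.01. Foxa2 was 1.84, 2.26 and 4.93 CPM in pKO1 and 1.23, 6.24 and 0.944 CPM in pKO2, against 1.33, 0.976 and 0.361 CPM in WT1 and 0.0828, 0 and 0.0926 CPM in WT2. The pKO and WT ranges overlapped through WT1, while all WT2 libraries were at or near 0. Its log2 fold change was 3.69 ± 0.69 (adjusted p = 0.00568). Sox17 was 0.922, 1.05 and 0.239 CPM in pKO1 and 2.39, 3.65 and 0.515 CPM in pKO2, against 0.199, 0.139 and 0.0721 CPM in WT1 and 0.166, 0 and 0 CPM in WT2. Every pKO library was above every WT library, at 117 counts in 6 pKO libraries and 8 counts in 6 WT libraries (3.81 ± 0.93, adjusted p = 0.0206).

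Gata4, a zinc-finger factor of endoderm and heart, was 3.61, 2.34 and 3.26 CPM in pKO1 and 5.81, 7.38 and 11.5 CPM in pKO2, against 1.33, 0.697 and 0.865 CPM in WT1 and 1.74, 0.742 and 1.11 CPM in WT2. All 6 pKO libraries were above all 6 WT libraries, and every pKO2 library was above every pKO1 library. Its log2 fold change was 2.25 ± 0.33 (adjusted p = 0.00135). Gata6 was 0.692, 1.62 and 0.239 CPM in pKO1 and 2.67, 4.49 and 0.944 CPM in pKO2, against 0.199, 0.906 and 1.01 CPM in WT1 and 0.166, 0.148 and 0.0926 CPM in WT2, and here the genotypes overlapped (2.26 ± 0.60, adjusted p = 0.0306).

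The inhibitor Cer1 did not pass the test, with 3.06 ± 1.01 and adjusted p = 0.0729. It was 0.769, 1.86 and 1.75 CPM in pKO1 and 0.0684, 2.82 and 0 CPM in pKO2, against 0.199, 0.836 and 0.144 CPM in WT1 and 0, 0.099 and 0 CPM in WT2. All 3 pKO1 libraries held Cer1, while 1 pKO2 library held nearly all of that line's Cer1. DESeq2 called it (3.24, adjusted p = 0.0321). Foxa1, the partner of Foxa2, was 0.796 to 2.14 CPM in pKO (median 1.76) and 0 to 1.60 CPM in WT (median 0.802), with 1.03 ± 0.66 (adjusted p = 0.367). Hhex was 2.42 to 7.98 CPM in pKO (median 5.24) and 3.35 to 4.83 CPM in WT (median 4.66), with 0.19 ± 0.33. Cxcr4 was 3.88 to 19.9 CPM in pKO (median 8.16) and 5.34 to 15.4 CPM in WT (median 10.2), with 0.03 ± 0.44, an approximate 95% interval of −0.82 to 0.89. For Hhex the interval was −0.46 to 0.85 and for Foxa1 −0.25 to 2.32.

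Among the 15 fits that each left out 1 NPC library, Foxa2 and Gata4 passed in every one. Sox17 lost the call in 4, without pKO2 replicate 2 (3.51), WT1 replicate 3 (3.67) or WT2 replicate 2 or 3 (3.45 and 3.61). Gata6 lost it in 6, without pKO1 replicate 1 (2.33), pKO1 replicate 2 (1.82), pKO2 replicate 2 (1.97), WT1 replicate 3 (2.43), or WT2 replicate 2 or 3 (2.29 and 2.18). Cer1 gained it without pKO2 replicate 1 (3.34, adjusted p = 0.0485). Against WT1 alone, of the 8 members, only Gata4 passed, while Foxa2 had 1.73 (adjusted p = 0.221), Sox17 3.15 (adjusted p = 0.15) and Gata6 1.13 (adjusted p = 0.402). Against WT2 alone Sox17 lost its call (4.47, adjusted p = 0.0586). With pKO1 alone Sox17 (3.04, adjusted p = 0.0949) and Gata6 (1.44, adjusted p = 0.234) lost theirs. WT2 and WT1 NPCs differed by −3.93 ± 1.14 in Foxa2 (adjusted p = 0.244) and −2.25 ± 0.93 in Gata6 (adjusted p = 0.497). With the lines as replicates, 2 against 2, edgeR called 0 members and 0 of all genes.

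Other cell types that express members were measured beside them in NPCs, in the comparison of pKO with WT, where 3.45% of all genes tested rose. Of 15 measured extraembryonic endoderm markers 11 were tested and 1 rose in pKO, the endocytic receptor Cubn (1.87 ± 0.36, adjusted p = 0.00642), and their median was 0.05 against 0.01 for all genes. Their summed level was 886 to 1280 CPM in pKO NPCs and 887 to 1080 CPM in WT NPCs. Lrp2 was the highest of them, at a mean of 375 CPM in pKO and 371 CPM in WT, so the sum says little about the lower markers. Afp was at 0 in every NPC library, and Sox7 was 0.384 to 1.57 CPM in pKO and 0 to 1.26 CPM in WT. Of 8 floor plate genes 4 were tested and 1 rose, and Shh was 0 to 1.45 CPM in pKO and 0 to 1.95 CPM in WT. Of 12 mesoderm and endothelium genes 8 were tested and 1 rose, the streak factor T (3.47 ± 0.66, adjusted p = 0.00602). Their sums were 35.2 to 137 CPM in pKO (median 61.7) and 24.3 to 53.2 CPM in WT (median 39.2). The 8 neural progenitor genes had a median of −0.03, with sums of 144 to 456 CPM in pKO and 187 to 512 CPM in WT, and 1 of 6 pluripotency genes rose, with sums of 522 to 882 CPM in pKO and 411 to 728 CPM in WT. The part of these cell types in the members' differences was not tested.

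Set against pInv, the other edit of the same promoter, pKO NPCs were higher in Foxa2 and Gata4, 2 of 8 members where 0.448% of genes rose. Foxa2 had 225 counts in 6 pKO libraries and 1 count in 3 pInv libraries, a ratio of 121 (95% counting interval 21.6 to 4810), and the edgeR estimate was 6.44 ± 1.16 (adjusted p = 0.0156). Gata4 was 2.34 to 11.5 CPM in pKO and 1.36, 0.612 and 1.39 CPM in pInv (2.17 ± 0.43, adjusted p = 0.0254). In both genes every pKO library was above every pInv library. Both calls were lost when any 1 of the 3 pInv libraries was left out (Foxa2 5.92 to 8.34, Gata4 1.86 to 2.34), and Gata4's also without pKO1 replicate 1 or 3 or pKO2 replicate 2 or 3. Gata6 was 0.646, 1.63 and 0.869 CPM in pInv, inside the pKO range (0.53 ± 0.67, adjusted p = 0.874), and Sox17 was 0, 0 and 0.608 CPM in pInv (2.73 ± 1.11, adjusted p = 0.308).

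The pKO effect itself differed between the states among the lines sampled. For 5 of 8 members it was higher in NPCs than in serum in the interaction test over all 45 genotype libraries, where 1.99% of all genes passed in that direction. The difference of the pKO effects was 4.58 ± 0.70 for Foxa2 (adjusted p = 0.000101), 5.54 ± 0.87 for Sox17 (0.000121), 2.65 ± 0.39 for Gata4 (6.91e-05), 2.96 ± 0.56 for Gata6 (0.0018) and 4.70 ± 1.21 for Cer1 (0.0272), all on the log2 scale. It was 1.11 ± 0.64 for Foxa1 (0.354), 0.07 ± 0.32 for Hhex (0.951) and 0.00 ± 0.50 for Cxcr4 (1). Foxa2, Sox17, Gata4 and Gata6 kept the call in all 45 fits without 1 library. The spread in this test is that between libraries of a line. The interaction was not tested with single lines or with lines as replicates. With lines as replicates, the pKO effect in NPCs alone passed for 0 members. Cer1 lost it in 5, without replicate 3 of WT1 serum (4.43), WT2 serum (4.51), WT1 NPCs (4.5) or WT2 NPCs (4.53), and without NPC replicate 2 of pKO2, where the difference was 2.51 (adjusted p = 0.558).

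In serum 1 of 8 members passed, in the other direction: Sox17 fell in pKO, where 4.18% of all genes fell. Sox17 was 0.326 to 0.813 CPM in pKO (median 0.584) and 0.519 to 6.06 CPM in WT (median 2.01), overlapping through WT2, with −1.77 ± 0.43 (adjusted p = 0.0262). The members' median was −0.59 and that of all genes 0.02. Cer1 was 0.166 to 5.06 CPM in pKO (median 1.65) and 2.34 to 16.4 CPM in WT (median 5.04), with −1.71 ± 0.64 (adjusted p = 0.134). Foxa2 had −0.92 ± 0.41 (adjusted p = 0.194) and Gata6 −0.74 ± 0.28 (adjusted p = 0.134). Gata4 (−0.44), Foxa1 (−0.12), Hhex (0.08) and Cxcr4 (−0.00) had smaller values, none of them past the test. With the replicate number as a block in edgeR, 3 members fell, Sox17, Cer1 (−1.81, adjusted p = 0.00747) and Foxa2 (−0.87, adjusted p = 0.02). The count over all genes was then 2889 in place of 845. Of 30 same-numbered pairs in serum 29 correlated above 0.1, so these libraries were not taken as paired. Sox17 lost its call in 5 of 15 fits without 1 library: pKO1 replicate 2 (−1.72) or 3 (−1.68), pKO2 replicate 2 (−1.71), WT1 replicate 3 (−1.51) or WT2 replicate 3 (−1.48). Against WT2 alone it was −0.76 (adjusted p = 0.418). The 20 feeder genes had a median of 0.77 in the same comparison.

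In 2i, where Foxa2 and Cer1 were too low to be tested, 0 of 6 members passed between pKO and WT in edgeR, while 9.05% of all genes did. At an unadjusted p under 0.05 there were 3, and DESeq2 called 0. Gata4 was 4.02 to 7.17 CPM in pKO (median 4.68) and 2.71 to 16.2 CPM in WT (median 8.56), a difference of −0.53 ± 0.19 (adjusted p = 0.0914). With the replicate number as a block, which pairs these libraries, 3 members fell, Sox17 by 0.74 (adjusted p = 0.0479), Gata4 by 0.50 (0.0312) and Gata6 by 0.56 (0.0459), and the count over all genes was 2911 in place of 1261. The spread within WT was large and followed the line. WT2 was higher than WT1 in Foxa1, Sox17 and Gata4, 3 of 6 members where 9.21% of genes rose. Foxa1 was 5.05, 3.90 and 3.75 CPM in WT2 and 1.67, 0.68 and 0.492 CPM in WT1 (2.17 ± 0.44, adjusted p = 0.00333). Gata4 was 16.2, 11 and 10.6 CPM in WT2 and 6.48, 3.93 and 2.71 CPM in WT1 (1.53 ± 0.26, adjusted p = 0.0012). In both genes the WT lines did not overlap. Sox17 had 1.25 ± 0.41 (adjusted p = 0.0487), and this call was lost in 12 of the 15 fits without 1 library (0.84 to 1.79 over all 15). Without WT1 replicate 3, Sox17 (−1.02, adjusted p = 0.0183) and Gata4 (−0.65, adjusted p = 0.0219) were lower in pKO than in WT.

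In the other comparisons between lines of a genotype no member passed in edgeR. Between WT2 and WT1, 0 of 8 members passed in serum, where 0.528% of genes did, and 0 of 8 in NPCs, where 0.103% did. Between pKO2 and pKO1, 0 of 6 passed in 2i (0.574% of genes), 0 of 8 in serum (0.197%) and 0 of 8 in NPCs (2.93%). In the order given, the members at an unadjusted p under 0.05 in edgeR numbered 4, 2, 1, 2 and 2, and DESeq2 called 2, 0, 0, 0 and 1. The calls of DESeq2 were Sox17 and Gata6 in serum, lower in WT2 than in WT1, and Gata4 in NPCs, higher in pKO2 than in pKO1.

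**Figure D3:**
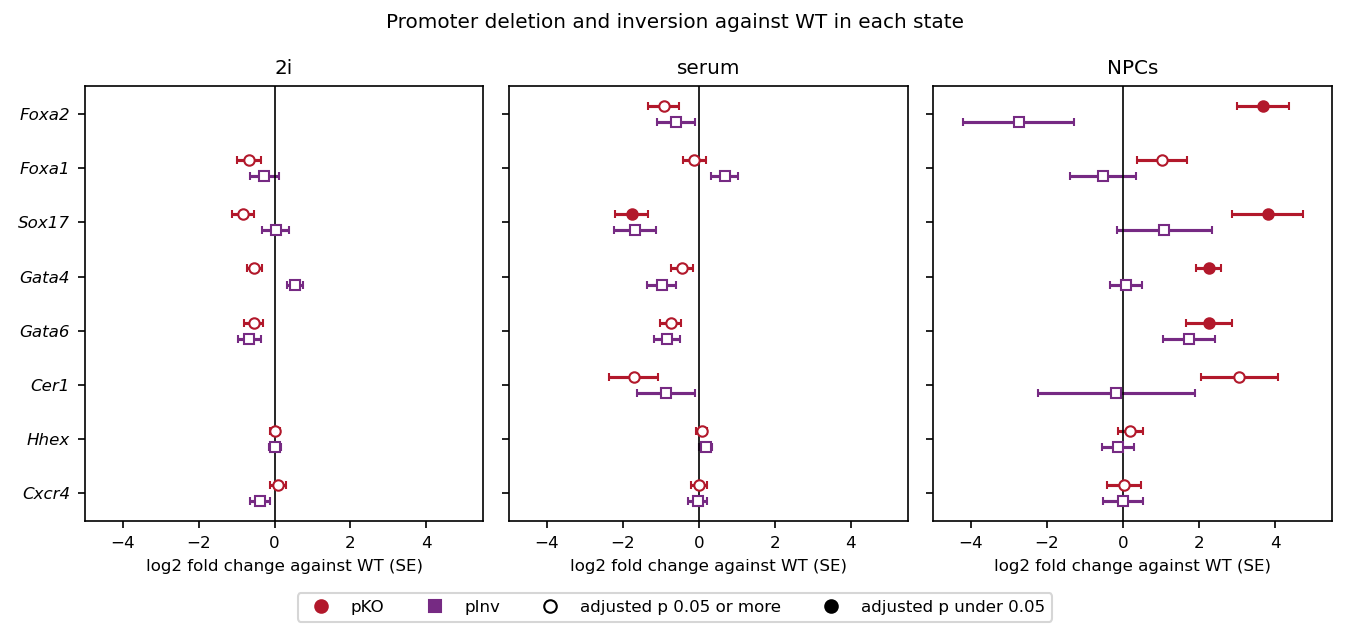
Genotype differences of the 8 members in 2i, serum and NPCs. Points are log2 fold changes of pKO and of pInv over WT with SE bars from edgeR, filled where adjusted p was under 0.05; Foxa2 and Cer1 were not tested in 2i. Filled points are Sox17 in serum (−1.77) and Foxa2, Sox17, Gata4 and Gata6 in NPCs (2.25 to 3.81), all of pKO.

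Inverting the promoter changed no member past the test in any state. Between pInv and WT, 0 of 6 members passed in 2i (0.911% of all genes), 0 of 8 in serum (0.0563%) and 0 of 8 in NPCs (0.0138%). In edgeR the members with an unadjusted p under 0.05 numbered 2 in 2i, 3 in serum and 1 in NPCs, and DESeq2 called 0 in each. Gata4 was 11, 10.3 and 11 CPM in the pInv libraries in 2i, a narrow range inside that of WT (0.54 ± 0.22, adjusted p = 0.295). In serum Sox17 was 0.261, 0.255 and 1.28 CPM in pInv, with −1.67 ± 0.55 against WT (adjusted p = 0.806). In NPCs Gata6 was 1.73 ± 0.69 above WT (adjusted p = 0.679), and Foxa2 had −2.75 ± 1.45 (adjusted p = 0.743) with 1 count in pInv. No member's pInv effect passed the test of a difference between NPCs and serum, 0 of 8 where 0.00638% of genes passed in edgeR. At an unadjusted p under 0.05 there were 2, Gata6 and Sox17, and DESeq2 called 0. With 3 libraries of 1 line, intervals were wide: for Sox17 in NPCs the approximate 95% interval ran from −1.34 to 3.52.

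Directly compared, pKO and pInv differed in 1 of 6 members in 2i, where Gata4 was lower in pKO (4.02 to 7.17 CPM) than in pInv (10.3 to 11 CPM), a difference of −1.07 ± 0.22 (adjusted p = 0.016), and 2.43% of all genes fell. Sox17 was likewise below all 3 pInv libraries in all 6 pKO libraries, with −0.86 ± 0.36 (adjusted p = 0.25). The Gata4 call was lost without pInv replicate 2 or 3 and with pKO1 alone (−0.73, adjusted p = 0.346). In serum 0 of 8 passed in edgeR, where 0.176% of genes did, with 1 member, Foxa1, at an unadjusted p under 0.05 and 0 by DESeq2.

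No member passed the test between knockdown and empty-vector cells in fits without the replicate block, in which Platr11 did not pass either. The unadjusted p of Platr11 in those edgeR fits was 1.32e-05 in serum and 1.03e-05 in NPCs. Between KD and Ctrl, 0 of 8 members passed in serum and 0 of 5 in NPCs, where Sox17, Gata6 and Cer1 were too low to be tested, and the background was 0% of genes in serum and 0% in NPCs. In edgeR no member had an unadjusted p under 0.05 in either state, while 138 genes did in serum and 179 in NPCs. DESeq2 called 0 members and 1 and 2 genes. No member's knockdown effect passed the test of a difference between NPCs and serum in edgeR, 0 of 8 where 0% of genes passed, with 0 members at an unadjusted p under 0.05 and 0 by DESeq2. Between KD2 and KD1 no member passed in serum or NPCs, and 0% and 0% of genes passed in edgeR, though 1869 and 39 had an unadjusted p under 0.05. With the replicate block, which pairs these libraries, 1 gene fell between KD and Ctrl in serum and 2 fell in NPCs, none of them a member. Whether Platr11 was among them is not reported here. Between KD2 and KD1 in serum the block's count of genes was 1569, still with 0 members.

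In the perturbation series several members varied with the replicate number. In serum Foxa2 was 22.3, 4.63 and 4.28 CPM in KD1 and 17.0, 6.73 and 6.68 CPM in KD2, against 16.5, 7.76 and 8.86 CPM in Ctrl, for replicates 1, 2 and 3 of each. Cer1 was 16.9, 2.27 and 0.828 CPM in KD1 and 10.9, 2.36 and 1.13 CPM in KD2, against 12.5, 3.14 and 1.70 CPM in Ctrl. In each group the library numbered 1 was the highest for Foxa2, Sox17, Gata4, Gata6 and Cer1. Without the replicate block, KD against Ctrl was −0.08 ± 0.54 for Foxa2 (approximate 95% interval −1.14 to 0.97) and −0.01 ± 0.94 for Cer1 (−1.84 to 1.83). Both had adjusted p = 1 in edgeR. In NPCs the order was of another kind: Cxcr4 was 1.34, 16.6 and 6.88 CPM in KD1 and 1.29, 13.4 and 7.83 CPM in KD2, against 1.69, 14.8 and 5.35 CPM in Ctrl, so that the number 1 was lowest and the number 2 highest in each. The labels do not say what a replicate number shared. KD2 NPC replicate 1 stood apart, with 4.30 CPM of Foxa2, 1.94 CPM of Cer1, 1.40 CPM of Sox17 and 42.3 CPM of Eomes.

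**Figure D4:**
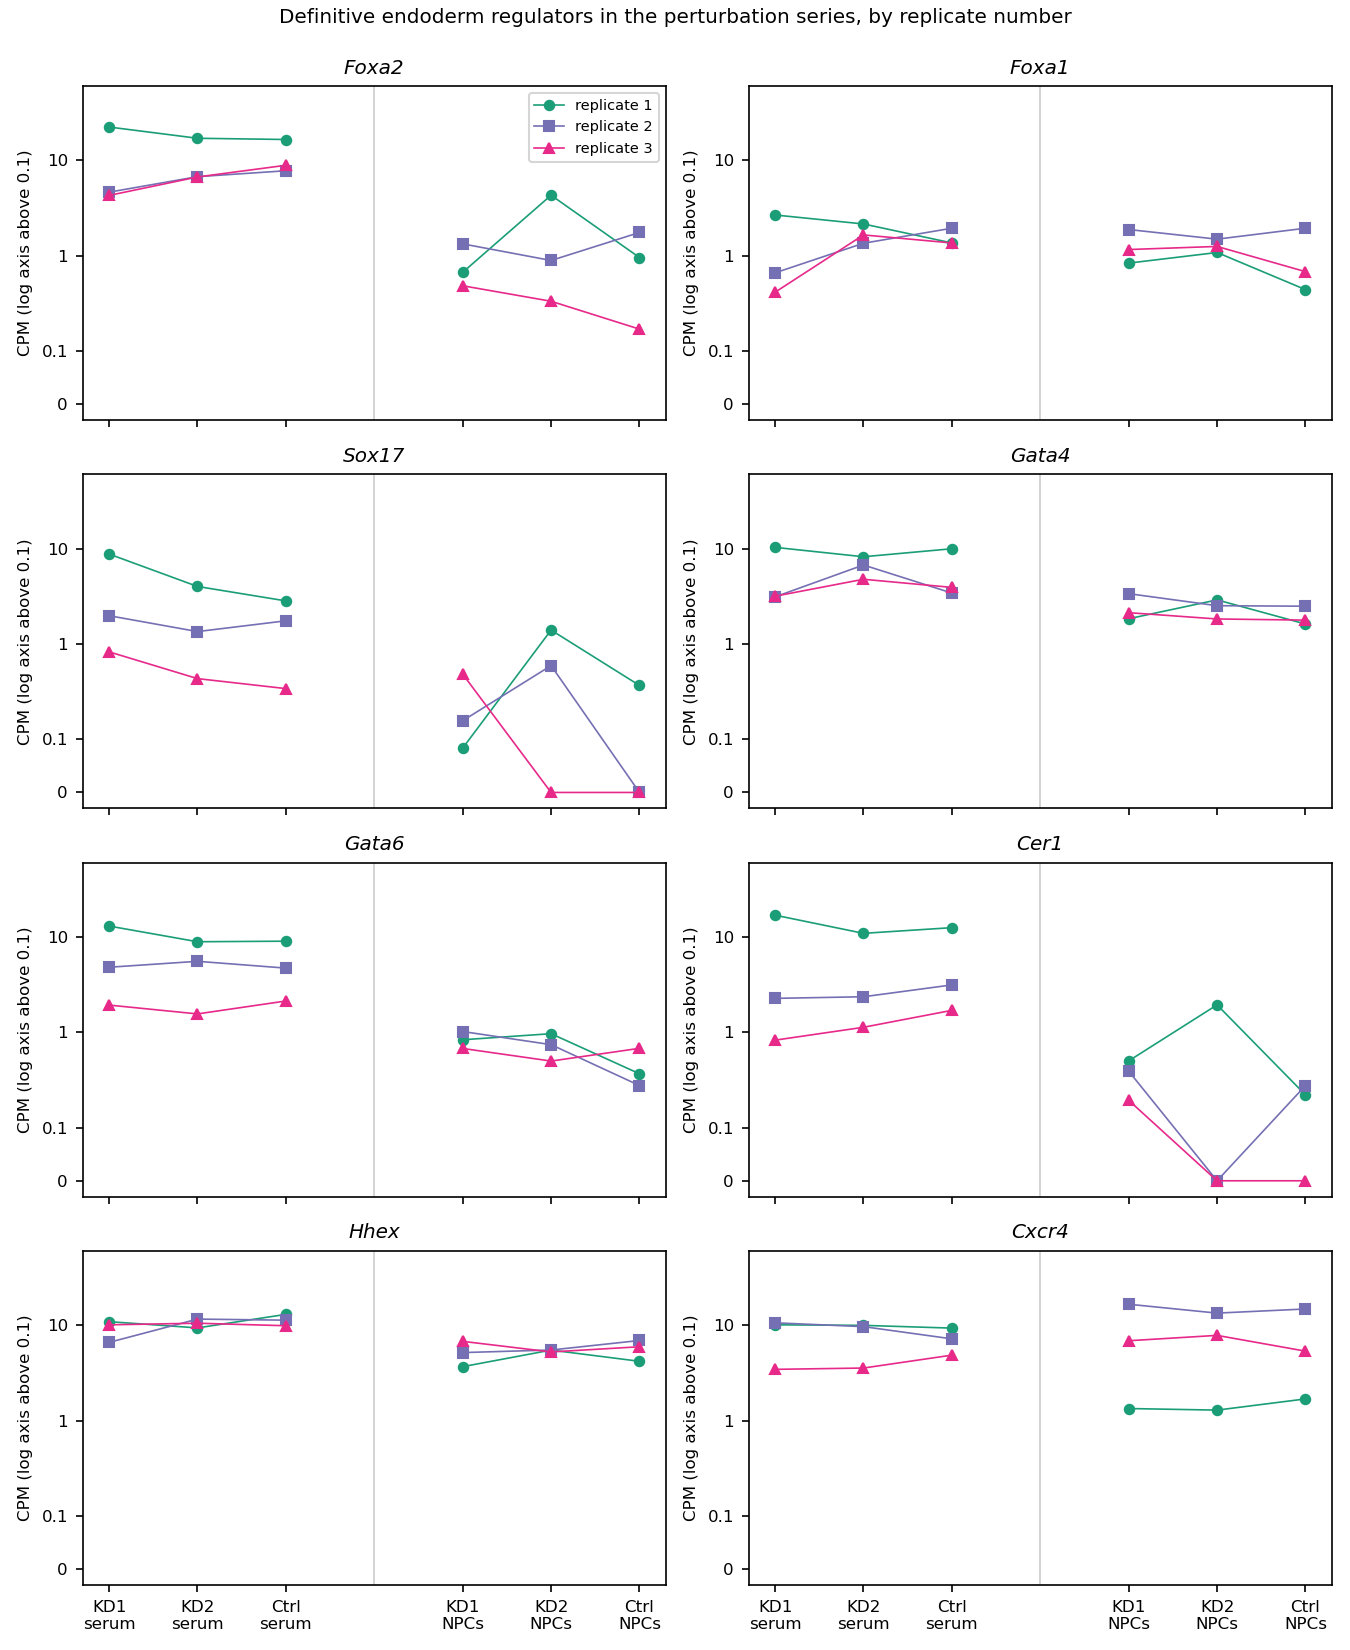
Members in the perturbation series. Each point is 1 library in KD1, KD2 or Ctrl, in serum and in NPCs, with TMM-scaled CPM on the y axis, and lines join libraries of the same replicate number. In serum the line of replicate 1 is the highest for Foxa2 (16.5 to 22.3 CPM), and in NPCs it is the lowest for Cxcr4 (1.29 to 1.69 CPM).

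Genes upstream of the members and beside them in endoderm were counted from lists. Of 15 genes of the Nodal and Eomes pathway, 7 rose in pKO NPCs, where 3.45% of all genes did, with a median of 0.59 against 0.01 for all genes. They included Eomes (2.81 ± 0.32, adjusted p = 0.000208) and the ligand Nodal (2.35 ± 0.28, 0.000287). In serum, where 4.18% of all genes fell, 2 of the 15 did, Eomes (−1.13 ± 0.21, 0.00818) and the streak homeobox gene Mixl1 (−2.07 ± 0.50, 0.0246). In 2i, where 802 of 13938 genes fell and 459 rose, 2 of the list fell, Eomes and Nodal (−0.63 ± 0.14, 0.0149). In that state 1 rose, the receptor Acvr2b (0.28 ± 0.08, 0.034). Of 13 other genes used as definitive endoderm markers, 10 were tested in serum and 4 fell, where 4.18% of all genes did, among them the LIM factor Lhx1 (−2.54 ± 0.49, 0.00907), the keratin Krt19 (−1.84 ± 0.40, 0.0152) and the hormone precursor Trh (−0.50 ± 0.12, 0.0268). In 2i, where 459 of 13938 genes rose, the peptide ligand Apela did (0.74 ± 0.21, 0.0393). In NPCs 8 were tested and 2 rose, where 3.45% of all genes did, Trh (1.30 ± 0.34, 0.0283) and the Wnt inhibitor Dkk1 (4.69 ± 1.25, 0.0338), and 5 of 11 had a higher pKO effect in NPCs than in serum, where 1.99% of all genes did. The ligand of Cxcr4, Cxcl12, fell in pKO NPCs (−0.64 ± 0.15, 0.0159), and the scavenging receptor of the same ligand, Ackr3, rose in pKO in 2i (0.69 ± 0.18, 0.0306). Every pKO library was below every WT library for Eomes in 2i and in serum, and above every WT library in NPCs.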

How the data were processed

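Libraries were made from polyadenylated RNA with the Lexogen SENSE mRNA-Seq kit, per the labels' protocols. The authors deposited RSEM expected counts and TPM for each library, and mm9 is the build per the submitters' processing notes; the RSEM version, aligner and strand setting are not given in the sources used here. Expected counts were rounded (4.65% to 7.86% of values per library were not whole within 0.005). Of 24990 rows, 35 had no name. Deposited TPM values were used only to compare levels between genes, and CPM is scaled by TMM over all 63 libraries. Where the libraries of groups are said not to overlap, the share of all genes that separate likewise was not computed.

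Genes were tested with edgeR 4.0.16 (TMM, filterByExpr, quasi-likelihood F test, Benjamini-Hochberg adjustment over all genes, called under 0.05) in R 4.3.3, with 1 mean per line, and the SE is the absolute log2 fold change over the square root of F. The 95% intervals of log2 fold changes are normal approximations from this SE and are narrower than the F test implies. For Foxa1, pKO against WT in 2i, the interval was −1.29 to −0.05 with an unadjusted p of 0.053 in that test. DESeq2 1.42.0 was an alternative, and tables and plots used Python 3.11.15, pandas 2.3.3, numpy 2.4.6, scipy 1.17.1 and matplotlib 3.10.9. Each genotype comparison used the 15 libraries of a state, WT state comparisons 18, other genotype state comparisons and interactions 45, and the perturbation series 9 or 18. The tests were tested on simulated data. Replicate numbers were taken as pairing where all same-numbered pairs correlated above 0.1 in their deviations from group means: in 2i (lowest 0.247) and in the perturbation series (lowest 0.305 in serum, 0.25 in NPCs, 0.223 in both), not in serum (0.097) or NPCs (−0.346) of the genotype series. Alternatives were DESeq2, no low-count filter, the replicate block, single lines, lines as replicates, leaving out each library, and, chosen after seeing the data, leaving out the perturbation libraries numbered 1.

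The members and lists were chosen with earlier results of these data known. The text names all 8 members, Eomes and Platr11, in the pKO comparisons with WT up to 3 called genes of the lists described, by smallest p (not all are reported here), markers beside a member's result, and for each member the 3 genes of highest Pearson correlation. Of 117 list symbols 116 were found, and Pdgfra was not analysed here. Promoters are RefSeq sequences of GRCm38.p6; coordinates of other features are not given, since the files use another build.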

Additional observations from a re-analysis of the deposited data

Results flagged for a closer look

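In 4 groups of 6 libraries, of 64 groups examined, 1 library lay far from the others by Dixon's criterion. Chance flags about 1 in 20 groups. Foxa2 was 4.30 CPM in KD2 NPC replicate 1, and Cer1 was 1.94 CPM in the same library, each the highest of the 6 KD NPC libraries. Cer1 was 0.836 CPM in WT1 NPC replicate 2, the highest of the 6 WT NPC libraries. Cxcr4 was 1.75 CPM in WT2 replicate 2 in 2i, the lowest of the 6 WT libraries.

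The pKO effect differed between NPCs and serum in edgeR's interaction test for 5 members: by 4.58 on the log2 scale for Foxa2, 5.54 for Sox17, 2.65 for Gata4, 2.96 for Gata6 and 4.70 for Cer1. The spread in this test is between libraries of a line, and it was not run with lines as replicates.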

How the results depend on the processing

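Of 1241 member values under other settings, 1191 kept their side of the threshold, 18 lost the call and 31 gained it. A further 1 called value changed sign: Sox17 between serum and 2i was 0.66 with WT1 alone. Of 5484 member values without 1 library, 71 lost and 23 gained the call, and 0 called values changed sign. Changes of sign among values uncalled in both fits were not counted. The numbers of members called that changed were as follows, and the cause was not tested. For pKO against WT in 2i it was 3 with the replicate block, 4 with WT2 alone and 1 with pKO2 alone (0 to 2 without 1 library). In serum it was 3 with the block, 2 with WT1 alone, and 0 with WT2 alone, pKO1 alone, pKO2 alone or lines as replicates (0 to 1). In NPCs it was 1 with WT1 alone, 2 with pKO1 alone and 0 with lines as replicates (2 to 5). For pInv against WT in 2i it was 1 with WT1 alone. With pKO1 alone, pKO against pInv had 0 in 2i (0 to 1) and 1 in NPCs (0 to 2). WT2 against WT1 in serum had 2 by DESeq2 and 3 with the block, and pKO2 against pKO1 had 1 with the block in serum and 1 by DESeq2 in NPCs. Without 1 library, NPCs against serum had 2 to 4 in pKO, 3 to 6 in pInv and 3 to 6 in Ctrl. The block changed no other count of members by over 1.5 times.

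Over all genes, pKO against WT had 1261 calls in 2i (2911 with the block, 492 against WT1, 2738 against WT2, 119 with pKO1, 1 with lines as replicates), 845 in serum (2889, 168 against WT1, 415 with pKO2, 12 with lines, 1342 by DESeq2) and 1168 in NPCs (363 against WT1, 766 against WT2, 712 with pKO2, 0 with lines, 1897 by DESeq2). Without 1 library these counts ran from 704 to 1764 in 2i, 307 to 1370 in serum and 525 to 1921 in NPCs, and for pKO against pInv in NPCs from 16 to 184 (127 with all), so the shares of all genes printed beside the members move with them. With pInv against WT the counts were 127, 8 and 2, and 432, 46 and 55 by DESeq2. The pKO effect in NPCs minus serum had 635, and 1600 with the block. Members with few counts, Foxa2, Sox17 and Cer1 in NPCs, limit what this depth can show.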

Other observations

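Over the 21 group means of log2(CPM + 0.5), the genes whose pattern was most like each member, among 15032 genes ranked, were described by Pearson's r with no test, since groups share lines and states. For Foxa2 they were T (0.957), Fgf8 (0.947) and Myc (0.947), for Cer1 Lhx1 (0.975), Evx1os (0.959) and Mixl1 (0.957), and for Gata6 Sgk2 (0.943), Foxq1 (0.921) and Pga5 (0.914). Hhex followed Kat6b (0.983), Eng (0.981) and Elf3 (0.981), and Cxcr4 followed Lin28a (0.971), Sema5a (0.971) and Fgfr2 (0.970). The likeness was lower for Gata4, with D5Ertd605e (0.845), Zfp428 (0.835) and Npr1 (0.819), for Sox17, with Clps (0.832), Fam131c (0.824) and Mars2 (0.821), and for Foxa1, with Usp17lb (0.767), Tspan1 (0.764) and Alox12e (0.759). With a pseudocount of 1, 19 of these 24 genes remained among the first 3. Eomes itself had r = 0.843 with Gata6 (rank 63 among the 15032 genes), 0.836 with Foxa2 (rank 170) and 0.803 with Cer1 (rank 292). Its r was 0.549 with Gata4 (rank 2278), 0.540 with Sox17 (rank 2692) and 0.501 with Foxa1 (rank 313). With Hhex it was 0.370 (rank 5174) and with Cxcr4 −0.005 (rank 8016).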
